A study of Mus musculus with 12 samples.

Results

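The genes described here are the nuclear genes of respiratory complex I, the NADH:ubiquinone oxidoreductase of the inner mitochondrial membrane, in mouse embryonic fibroblasts labelled as carrying or lacking tafazzin and kept in normal or low oxygen. Members were taken by name: protein-coding mouse genes whose symbol starts with Nduf, without Ndufa4 and Ndufa4l2, which are counted with another complex. This gave 44 genes of the 48709 gene identifiers in the deposited tables, 36 subunits and 8 assembly factors (symbols starting with Ndufaf). All 44 passed the filter on low counts that left 14408 genes to test. The subunit gene Ndufb1 is annotated in the mouse as a non-coding gene and is therefore not among them. The cells were fibroblasts of the C57BL/6 strain, and the 4 groups held 3 libraries each: wild type (WT) in normoxia, TAZKo in normoxia, WT after 24 hours of hypoxia in a hypoxia workstation and TAZKo after the same 24 hours. In TAZKo cells the target is tafazzin, an enzyme of the final remodelling of cardiolipin, a phospholipid that surrounds the respiratory chain, and the series describes the WT cells as isogenic. How the knockout was made, the oxygen level and the number of embryos or clones behind each group are not given in the sources used here. Nothing in the labels says that the 3 libraries of a group came from separate cultures, so each p-value measures the spread between these libraries, which may be technical.

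Complex I takes electrons from NADH, passes them along a chain of iron-sulfur clusters to ubiquinone and uses the energy to pump protons. It is built from separate modules: the N module binds NADH, the Q module reduces ubiquinone, and the proximal and distal parts of the membrane arm do the pumping. Core subunits of the membrane arm are encoded by mitochondrial DNA, and all others, with the assembly factors that put the modules together and then leave, are encoded in the nucleus. In low oxygen, cells are known to lower respiration and raise glycolysis, largely under the control of the transcription factor HIF-1. Cardiolipin binds complex I directly and is needed for its stability and for its association with other respiratory complexes.

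Total counts ran from 21039451 to 31204510 per library, and levels are given as CPM, a library's counts divided by its TMM-scaled total, in which 3 counts equalled 0.0927 to 0.15. Taz, which encodes tafazzin, was not lower under the TAZKo label. It had 758 to 902 counts in the WT normoxia libraries and 919 to 1325 in those labelled TAZKo, and 510 to 646 against 691 to 1006 in hypoxia. Its log2 difference was 0.29 in normoxia and 0.43 in hypoxia, higher in the libraries labelled TAZKo (edgeR adjusted p = 0.0139 and 0.00112). How the knockout was made is not given, so these counts cannot show whether working tafazzin was lost. The genotype is therefore given as the label throughout. WT normoxia library 1 stood apart, with mitochondrial genes at 0.921% of its counts against up to 1.93% elsewhere, and 29 of the 36 subunits were highest there among the 3 libraries of its group (80.6%, against 44.6% of all tested genes). Of the fibroblast markers, Col1a1 (1140 to 4130 CPM), Vim (1200 to 3580 CPM) and Fn1 (4520 to 7800 CPM) were abundant, while Lum had at most 2 counts, Thy1 at most 8 and Col1a2 1.51 to 5.93 CPM. Of the 4 immune markers Ptprc, Cd3e and Adgre1 had at most 2 counts and Cd68 had 66 to 218 (2.90 to 7.93 CPM), and the 4 skeletal muscle markers had at most 2 counts, with Myod1 and Myf5 at 0.

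Promoter sequence is shown for the member that rose in hypoxia, for a partnered pair of assembly factors that fell, and for the member with the largest difference between the genotypes. RefSeq windows on GRCm38.p6, from 250 bases before to 50 after a gene's start, were found for 39 of the 44 members. Each line gives the 250 bases before the start, 5′ to 3′ on the gene's own strand, and capitals mark a match to one of the motifs named in the next paragraph. Ndufv3 lies on chr17:31519865-31520114 (plus strand), Ndufaf5 on chr2:140170396-140170645 (plus strand), Ndufaf8 on chr11:120098684-120098933 (plus strand) and Ndufaf3 on chr9:108567437-108567686 (minus strand).
Ndufv3: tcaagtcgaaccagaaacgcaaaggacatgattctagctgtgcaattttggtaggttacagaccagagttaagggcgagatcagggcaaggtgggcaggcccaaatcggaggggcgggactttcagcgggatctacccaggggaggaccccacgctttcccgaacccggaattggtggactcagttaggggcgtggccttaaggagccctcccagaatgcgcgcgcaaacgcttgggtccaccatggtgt
Ndufaf5: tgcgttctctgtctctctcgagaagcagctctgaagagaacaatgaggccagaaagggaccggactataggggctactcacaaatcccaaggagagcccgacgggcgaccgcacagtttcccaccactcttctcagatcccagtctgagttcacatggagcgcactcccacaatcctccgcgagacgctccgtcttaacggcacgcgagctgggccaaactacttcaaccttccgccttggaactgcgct
Ndufaf8: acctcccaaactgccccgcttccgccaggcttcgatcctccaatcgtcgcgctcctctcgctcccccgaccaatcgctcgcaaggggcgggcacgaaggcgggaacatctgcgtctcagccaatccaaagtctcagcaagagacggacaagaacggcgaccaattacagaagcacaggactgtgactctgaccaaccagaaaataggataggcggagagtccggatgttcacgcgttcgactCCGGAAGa
Ndufaf3: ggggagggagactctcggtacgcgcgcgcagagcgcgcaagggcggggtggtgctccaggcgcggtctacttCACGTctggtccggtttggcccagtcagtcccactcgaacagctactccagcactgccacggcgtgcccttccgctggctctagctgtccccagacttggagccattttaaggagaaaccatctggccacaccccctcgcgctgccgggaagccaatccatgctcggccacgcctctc

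All 4 stretches are rich in G and C, at 57.6%, 57.2%, 58.8% and 65.6% in the order printed. Motifs were searched on both strands of the whole windows: ACGTG, the core of the hypoxia response element bound by HIF-1; CCGGAAG, a core bound by ETS factors such as GABP; and GCGCA followed by its reverse complement TGCGC, the palindrome bound by nuclear respiratory factor 1. ACGTG was found in 19.6% of all 32851 windows and in 8 of the 41 windows of members, which belong to 7 genes. These are Ndufv3 and, not called higher in hypoxia in either genotype, Ndufa1, Ndufa3, Ndufa7, Ndufaf3, Ndufb10 and Ndufv1. In Ndufv3 the match starts at base 12 after the gene's start and the surrounding stretch is shown with the motif in capitals.
Ndufv3 start: attggtgaACGTGgacgcggg
Ndufaf3 also holds it, read on the opposite strand from base -178. CCGGAAG was in 8.9% of all windows and in 6 of 41 member windows, among them Ndufaf8 at base -8. The nuclear respiratory factor palindrome was in 0.971% of all windows and in 3 of 41 member windows, those of Ndufa11, Ndufaf4 and Ndufaf5, the last from base 17 after the start.
Ndufaf5 start: tcccgttgGCGCATGCGCctaataga
A match describes letters only; binding was not measured.

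Most complex I genes were lower in hypoxia than in normoxia in both genotypes, by modest amounts, and a single subunit, Ndufv3, was higher. In the WT libraries 31 of 44 members fell and 1 rose (edgeR quasi-likelihood test, Benjamini-Hochberg adjusted p under 0.05), where 25.0% of all 14408 tested genes fell, 26.0% rose and 51.0% were called in either direction. In the libraries labelled TAZKo 26 fell and the same 1 rose, where 21.6% of all tested genes fell, 22.2% rose and 43.8% were called. The median log2 change of the 44 members was -0.32 in WT and -0.28 in TAZKo, against 0.01 and -0.01 for all tested genes. Called lower in both genotypes were 24 members, with 7 called only in WT and 2 only in TAZKo, and by value 40 of 44 were below 0 in both. Of all tested genes, no more than the 21.6% called lower in TAZKo can have been called lower in both. The share of all tested genes below 0 in both was not counted. The immune marker sum, nearly all Cd68, was also higher in hypoxia, at 2.93 to 3.36 CPM in WT normoxia against 6.70 to 7.97 CPM in WT hypoxia and at 3.47 to 4.33 against 5.98 to 7.39 CPM in TAZKo, and its part in the hypoxia changes was not tested. In bulk samples, fewer cells with a transcript and less of it per cell cannot be told apart.

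**Figure D1:**
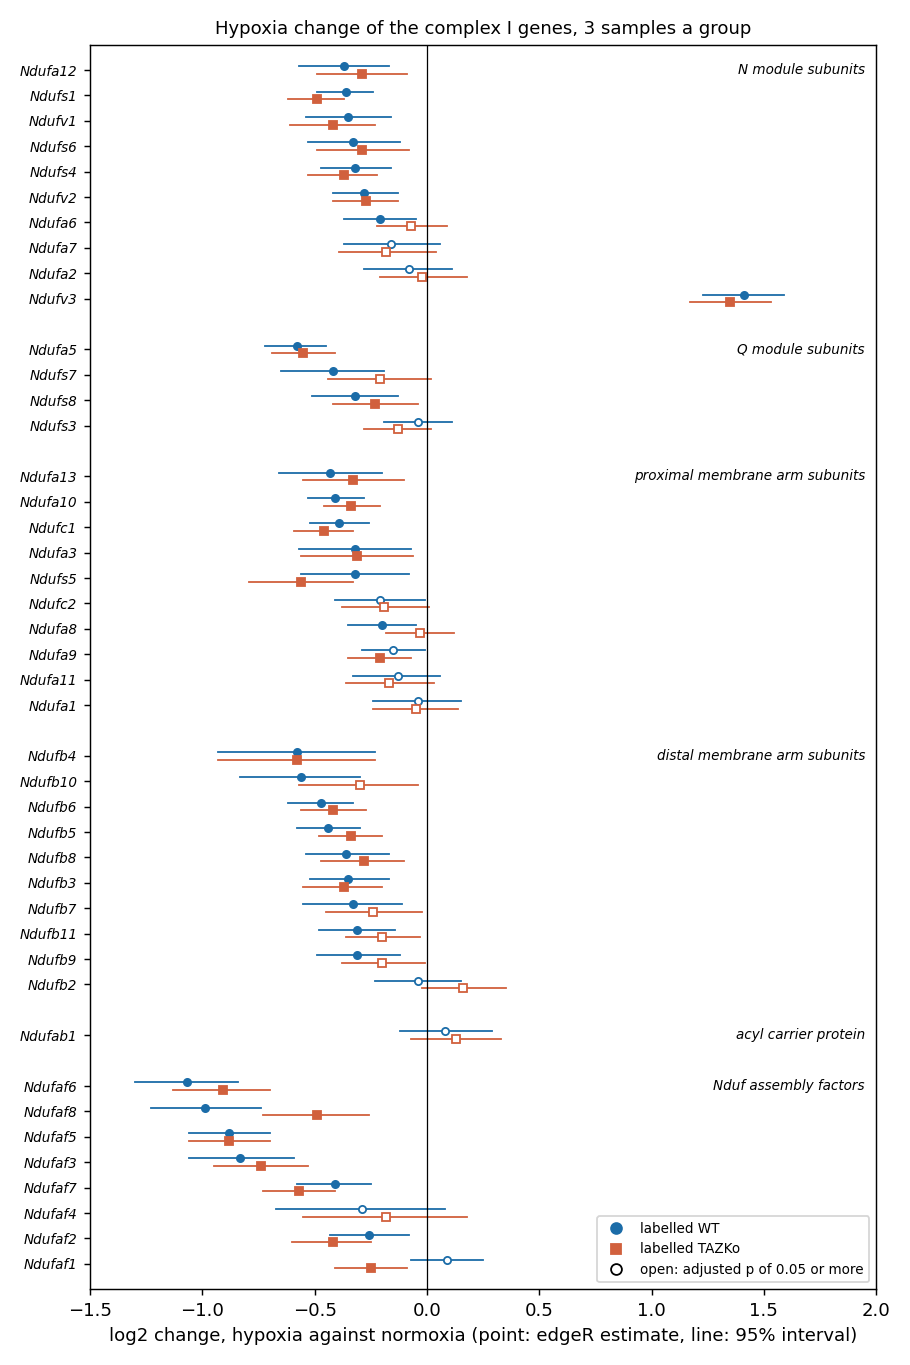
Log2 change from normoxia to hypoxia of 43 of the 44 members (rows, grouped by module), with the edgeR estimate as a point and its 95% interval as a line; circles are libraries labelled WT, squares those labelled TAZKo, open symbols did not pass an adjusted p of 0.05. Nearly all points lie left of 0; in WT the assembly factors Ndufaf6, Ndufaf8, Ndufaf5 and Ndufaf3 lie farthest left, in TAZKo Ndufaf6, Ndufaf5 and Ndufaf3 do while Ndufaf8 is at -0.49, and Ndufv3 alone lies far to the right at 1.41 and 1.35.

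The Ndufaf assembly factors had a larger median change than the subunits, a difference that was not tested. The 11 other complex I assembly factors, outside the members, had medians of -0.20 in WT and -0.28 in TAZKo. Over the members without Ndufv3, the mean log2 CPM and the hypoxia change had a Pearson r of 0.41 in WT and 0.48 in TAZKo. Members at a lower level thus tended to fall more, and the part of level in the larger Ndufaf change was not tested. The 36 subunits had a median log2 change of -0.32 in WT and -0.26 in TAZKo, a fall of 19.9% and 16.2%, while the 8 assembly factors had -0.62 and -0.53, or 34.9% and 30.7%. The subunits' changes had a standard deviation between genes of 0.32 on the log2 scale in each genotype, a value that Ndufv3 widens, against 0.77 in WT and 0.68 in TAZKo for all tested genes. The all-gene values were not limited to genes of similar level, and the part of level in this contrast was not tested. Summed over the 36 subunits, the WT level was 2879 ± 262 CPM in normoxia (SD, n = 3) and 2489 ± 123 CPM in hypoxia, and the TAZKo level was 2745 ± 49.7 CPM and 2435 ± 20.6 CPM. Summed over the assembly factors it went from 167.3 ± 2.08 to 125.3 ± 4.04 CPM in WT and from 174 ± 6 to 123.7 ± 3.51 CPM in TAZKo. Without WT normoxia library 1, 29 members were called lower in WT and 35 in TAZKo, and the WT median was -0.26. In that fit 3778 of 14682 tested genes were called lower in WT and 3870 in TAZKo, and 52.3% were called in either direction in each genotype.

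**Figure D2:**
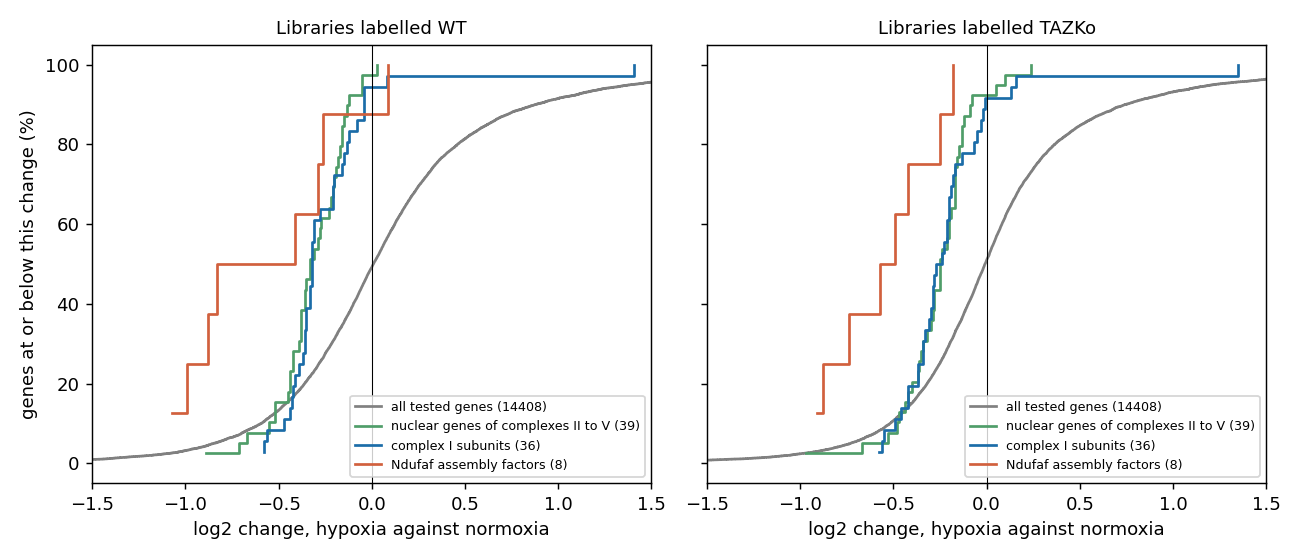
Share of genes (vertical axis, percent) at or below a given log2 change from normoxia to hypoxia (horizontal axis), for all 14408 tested genes, 39 nuclear genes of complexes II to V, 36 complex I subunits and 8 Ndufaf assembly factors; left, libraries labelled WT, right, those labelled TAZKo. The subunit curve runs beside that of the other complexes, with medians of -0.32 and -0.33 in WT, and the assembly factors lie to its left at -0.62.

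Ndufv3 is a small accessory subunit of the N module and was the sole member that rose. Its level was 75.1, 61.5 and 60.6 CPM in WT normoxia, 185, 165 and 172 CPM in WT hypoxia, 56.0, 53.3 and 60.3 CPM in TAZKo normoxia and 142, 141 and 149 CPM in TAZKo hypoxia. Every hypoxic library was far above every normoxic one. Within a genotype, 28.1% of all tested genes in WT and 30.3% in TAZKo were higher in hypoxia without overlap. The fold change of Ndufv3 was 2.65 in WT (log2 1.41, SE 0.084, edgeR adjusted p = 1.48e-08) and 2.55 in TAZKo (log2 1.35, SE 0.084, edgeR adjusted p = 3.76e-08). Across the fits that left out a library the change stayed between 1.29 and 1.51 in WT and between 1.28 and 1.37 in TAZKo. The gene lies at chr17:31520115-31531331 on GRCm38, and 1.2% of the 50-base words of its longest transcript recur in transcripts of other genes.

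Of the 10 N module subunits, Ndufv3 included, 7 fell in WT and 6 in TAZKo. Ndufs1, the largest subunit of the module and a carrier of iron-sulfur clusters, was at 147, 161 and 158 CPM in WT normoxia and at 126, 120 and 117 CPM in WT hypoxia. In the libraries labelled TAZKo it was at 187, 179 and 173 CPM in normoxia and at 124, 131 and 128 CPM in hypoxia. The groups did not overlap in either genotype, as held downward for 26.5% of all tested genes in WT and 30.9% in TAZKo. Ndufs1 fell by 0.36 on the log2 scale in WT (SE 0.058, edgeR adjusted p = 0.00016). In TAZKo it fell by 0.49 (SE 0.058, edgeR adjusted p = 1.6e-05). Ndufv1 holds the flavin that accepts electrons from NADH. It was at 225, 184 and 187 CPM in WT normoxia, 172, 154 and 143 CPM in WT hypoxia, 161, 148 and 143 CPM in TAZKo normoxia and 116, 115 and 107 CPM in TAZKo hypoxia. Again without overlap, Ndufv1 fell by 0.35 on the log2 scale in WT (SE 0.088, edgeR adjusted p = 0.00483), with a change of -0.25 without WT normoxia library 1. The TAZKo libraries gave a fall of 0.42 (log2 -0.42, SE 0.088, edgeR adjusted p = 0.00168). Ndufv2, Ndufs4, Ndufs6 and Ndufa12 fell in both genotypes, with log2 changes between -0.37 and -0.27. In TAZKo the call was lost for Ndufa12 without TAZKo hypoxia library 2 (edgeR adjusted p = 0.051) and for Ndufs6 without TAZKo normoxia library 1 (edgeR adjusted p = 0.0658). Ndufa6 fell in WT alone (-0.21, and -0.07 in TAZKo), a call that was lost without WT normoxia library 1 (-0.15, edgeR adjusted p = 0.0722), and the difference between its 2 changes did not pass the test.

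In the Q module, Ndufa5, an accessory subunit at the base of the peripheral arm, had the largest fall. It was at 46.4, 45.1 and 43.1 CPM in WT normoxia and at 30.3, 30.6 and 28.8 CPM in WT hypoxia, and at 40.1, 41.5 and 42.6 CPM and 30.3, 26.8 and 28.0 CPM in TAZKo. It fell by 0.58 in WT and 0.55 in TAZKo on the log2 scale (SE 0.065 and 0.064, edgeR adjusted p = 5.67e-06 and 1.56e-05). The iron-sulfur subunit Ndufs8 was called lower in both genotypes (-0.32 and -0.23). In WT its change was -0.20 without WT normoxia library 1, and in TAZKo the call was lost when any one of 4 libraries was left out (TAZKo normoxia 1 or 2, TAZKo hypoxia 2 or 3), with edgeR adjusted p up to 0.0757, and with DESeq2 (adjusted p = 0.0638). Ndufs7, which carries the last cluster before ubiquinone, fell in WT (-0.42, SE 0.11, edgeR adjusted p = 0.00514, and -0.25 without WT normoxia library 1) and was at -0.21 in TAZKo (edgeR adjusted p = 0.131). Ndufs3 did not pass the test in either genotype.

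In the membrane arm, 6 of 10 proximal subunits fell in each genotype, and 9 of 10 distal subunits were called lower in WT and 5 in TAZKo. Ndufb7, Ndufb9, Ndufb10 and Ndufb11, called in WT alone, were at -0.30 to -0.20 in TAZKo (edgeR adjusted p = 0.058 to 0.0781). None of them passed the interaction test, and without WT normoxia library 1 their WT changes were -0.37 to -0.17. Ndufb8, a distal subunit widely used in immunoblots as a marker of assembled complex I, was at 144, 112 and 110 CPM in WT normoxia, with library 1 well above the other two, and at 95.4, 96.4 and 93.5 CPM in WT hypoxia. In the libraries labelled TAZKo it was at 97.6, 98.2 and 94.7 CPM in normoxia and at 79.1, 80.8 and 79.2 CPM in hypoxia. It fell by 0.36 and 0.28 on the log2 scale (SE 0.086 in both, edgeR adjusted p = 0.00321 and 0.0172), and the WT change was -0.22 without WT normoxia library 1. Ndufb10 fell in WT (-0.56, SE 0.12, edgeR adjusted p = 0.00188), from 139, 97.2 and 94.6 CPM to 80.6, 76.5 and 66.3 CPM, with a change of -0.37 without WT normoxia library 1, and had -0.30 in TAZKo (edgeR adjusted p = 0.0634). Ndufb6, Ndufb5 and Ndufb3 fell in both genotypes, by 0.34 to 0.47. Ndufs5, which faces the intermembrane space, fell by 0.32 in WT and 0.56 in TAZKo. Without WT normoxia library 1 or WT hypoxia library 3 the WT call for Ndufs5 was lost (-0.27 in both fits, edgeR adjusted p = 0.0648 and 0.0654). Ndufb4 was called lower in both genotypes but was measured at only 2.15 to 4.21 CPM, and 37.0% of the words of its transcript recur in other annotated genes, so its reads may be divided. The same holds in part for Ndufs3 (39.7%), Ndufb6 (34.1%), Ndufs5 (31.1%), Ndufa13 (28.5%), Ndufb9 (23.4%), Ndufb11 (17.5%), Ndufa12 (17.2%), Ndufb5 (15.6%) and Ndufab1 (12.3%). Ndufb2 was not called (-0.04 and 0.16). Ndufab1, the acyl carrier protein that also serves mitochondrial fatty acid synthesis, was at 20.2 to 26.6 CPM over the 12 libraries, with log2 changes of 0.08 and 0.13 that did not pass the test.

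Of the 8 assembly factors, 6 fell in WT and 7 in TAZKo, and 4 of them had larger falls than any subunit in WT. Ndufaf6, needed for early assembly, was at 10.4, 9.83 and 9.78 CPM in WT normoxia and 5.00, 4.98 and 4.33 CPM in WT hypoxia, and at 12.2, 11.8 and 10.7 CPM and 6.32, 6.64 and 5.44 CPM in TAZKo. It fell by 1.07 in WT and 0.91 in TAZKo on the log2 scale (SE 0.11 and 0.10, edgeR adjusted p = 2e-06 and 7.81e-06), the largest fall of any member in each genotype. Ndufaf5 hydroxylates an arginine of Ndufs7 during assembly. It went from 17.5, 18.3 and 19.4 CPM to 10.8, 9.78 and 9.50 CPM in WT and from 16.5, 16.7 and 16.7 CPM to 9.87, 8.92 and 8.36 CPM in TAZKo, a fall of 0.88 in each (SE 0.084, edgeR adjusted p = 1.4e-06 and 2.13e-06). Ndufaf8, the binding partner that stabilises Ndufaf5, went from 20.0, 15.1 and 15.2 CPM to 8.20, 9.06 and 8.11 CPM in WT and from 14.7, 13.5 and 13.8 CPM to 10.7, 9.58 and 9.58 CPM in TAZKo. Its fall was 0.99 in WT (SE 0.11, edgeR adjusted p = 8.08e-06) and 0.49 in TAZKo (SE 0.11, edgeR adjusted p = 0.00259). No normoxic and hypoxic library of the same genotype overlapped for these 3 genes, as also held downward for 26.5% of all tested genes in WT and 30.9% in TAZKo.

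Ndufaf3, which with Ndufaf4 builds the Q module, fell by 0.83 in WT and 0.74 in TAZKo (edgeR adjusted p = 2.99e-05 and 3.83e-05). Ndufaf4 itself varied more between libraries, from 13.7 to 25.9 CPM, and its changes of -0.29 and -0.18 did not pass the test. Ndufaf7, a methyltransferase needed for assembly, fell by 0.41 and 0.57. Ndufaf2, a paralogue of Ndufa12 that holds its place until late assembly, was called lower by 0.26 and 0.42, but 80.9% of its transcript's words are shared with an antisense non-coding gene, and how the counting treated strand is not given in the sources used here. Ndufaf1, part of the complex that builds the membrane arm, was at 25.8, 30.0 and 28.9 CPM in WT normoxia and 30.2, 29.7 and 30.4 CPM in WT hypoxia (0.09, not called). In TAZKo it went from 31.4, 29.3 and 28.7 CPM to 25.6, 23.3 and 26.5 CPM and fell by 0.25 (SE 0.075, edgeR adjusted p = 0.0161).

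**Figure D3:**
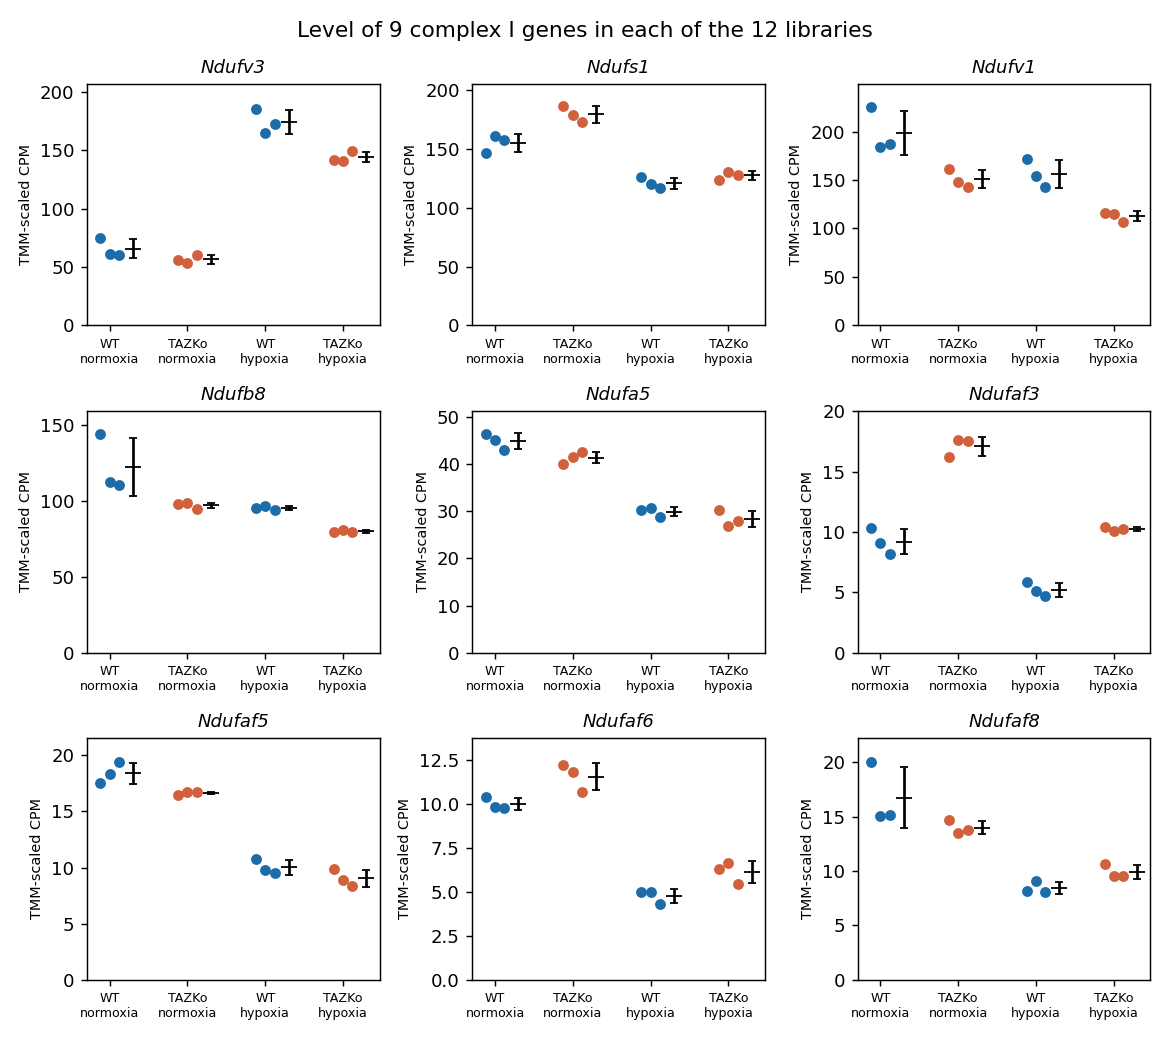
TMM-scaled CPM of 9 members in each of the 12 libraries (points; blue, labelled WT; orange, labelled TAZKo), with the mean and SD of each group of 3 beside them; all axes start at 0. Ndufv3 separates upward in hypoxia, Ndufaf5 and Ndufaf6 separate downward, and Ndufaf3 is higher in TAZKo within each condition.

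The hypoxia changes of the genotypes were set against each other with the interaction term. No member passed the adjusted threshold (edgeR and DESeq2 both 0 of 44). Of all tested genes edgeR called 2.43%, with the TAZKo change above that of WT for 0.722% and below it for 1.71%. DESeq2 called 4.77% of the genes it tested. Of all 14408 genes 2273 had an unadjusted edgeR p under 0.05, and of the members 2 did with each tool. In edgeR these were Ndufaf8, whose change was 0.49 higher in TAZKo (95% interval 0.15 to 0.83, adjusted p = 0.139), and Ndufaf1, whose change was 0.34 lower (log2 -0.34, interval -0.57 to -0.11, adjusted p = 0.127), and both were picked out after their values were seen. The Ndufaf8 level was highest of all 12 in WT normoxia library 1, and the difference was 0.35 without that library (adjusted p = 0.133). With no filter on low counts it passed the edgeR test (0.54, adjusted p = 0.0391). For Ndufv3 the interval of the difference was -0.31 to 0.19, for Ndufs1 -0.31 to 0.05, for Ndufv1 -0.34 to 0.19 and for Ndufb8 -0.18 to 0.34. Over all 44 members the intervals had a median width of 0.53 and reached from -0.57 to 0.83, which is wide beside the median hypoxia changes of -0.32 and -0.28. Across the 44 members the changes in the genotypes, which come from separate libraries, had a Pearson r of 0.92, and 0.84 without Ndufv3, as a description over genes.

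The rest of the pathway gives the setting. Of 39 tested nuclear genes of complexes II to V, 28 fell in WT and 24 in TAZKo, with medians of -0.33 and -0.25, near those of the complex I subunits. Ndufa4, named as a complex I gene but a subunit of cytochrome c oxidase, was lower by 0.89 in WT and 0.97 in TAZKo (log2 -0.89 and -0.97, edgeR adjusted p = 6.84e-08 and 4.38e-08). Of 11 other complex I assembly factors, 6 fell and 1 rose in WT and 7 fell and 1 rose in TAZKo. The one that rose was Ecsit, a partner of Ndufaf1 (0.44 and 0.36, edgeR adjusted p = 0.00119 and 0.00593), while Timmdc1, which helps build the membrane arm, fell by 0.48 and 0.50. Of 13 iron-sulfur cluster assembly genes, 7 fell and 2 rose in WT and 6 fell and 2 rose in TAZKo, the risers being Iba57 (0.93 and 0.62) and the chaperone Hspa9 (0.33 and 0.17). Of 11 regulators, Ppargc1b, a coactivator of respiratory genes, fell by 1.64 in WT and 1.18 in TAZKo (edgeR adjusted p = 2.7e-07 and 9.04e-06), while its paralogue Ppargc1a rose in WT (1.34, edgeR adjusted p = 0.000129) and was at 0.37 in TAZKo (edgeR adjusted p = 0.0832). Ppargc1a was also higher in TAZKo than in WT, by 1.64 in normoxia and 0.67 in hypoxia (edgeR adjusted p = 3.87e-05 and 0.00851). Nuclear respiratory factor 1 itself (Nrf1) was at 0.02 in WT and rose by 0.15 in TAZKo (edgeR adjusted p = 0.0454). In all, 3 regulators fell and 2 rose in WT, and 2 fell and 2 rose in TAZKo. None of the 11 regulators, Ppargc1a and Nrf1 included, passed the interaction test (log2 differences of -0.97 to 0.47). Of all tested genes edgeR called 2.43% there.

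The 7 mitochondrially encoded subunits gave few calls and varied widely between libraries. Of these, mt-Nd4l had 0 counts in every library and mt-Nd3 2 to 7, and 5 were tested. In WT the 5 had log2 changes of -0.16 to 0.01 (edgeR adjusted p from 0.344 to 0.971), and in TAZKo mt-Nd4 alone fell (-0.50, SE 0.14, edgeR adjusted p = 0.00875). By library, mt-Nd4 was at 557, 841 and 905 CPM in WT normoxia and at 645, 755 and 659 CPM in WT hypoxia. The changes of these genes without WT normoxia library 1 were not tested. None of the 5 passed the interaction test (log2 differences of -0.35 to -0.12), where edgeR called 2.43% of all tested genes. The summed level of the 7 was 3391 CPM in WT normoxia library 1 and up to 7443 CPM in the other WT normoxia libraries. This spread (5980 ± 2250 CPM, SD, n = 3) was wider than the mean difference from WT hypoxia (5820 ± 595 CPM). The difference between nuclear and mitochondrial subunits was not tested.

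Between the genotypes the complex I genes moved in both directions and no member called in both conditions changed direction. With normal oxygen, the TAZKo label went with a higher level of 4 of 44 members and a lower level of 4 (18.2% called, where 30.4% of all tested genes were called, 15.6% higher and 14.9% lower). In hypoxia 7 were higher and 6 lower (29.5%, where 32.8% of all tested genes were called, 15.8% higher and 16.9% lower). The median over the 44 members was -0.02 in normoxia and 0.03 in hypoxia. Called in both conditions were Ndufa12 and Ndufaf3, higher, and Ndufv1, Ndufs8 and Ndufb8, lower. The share of all tested genes called in both conditions was not counted. The numbers of members called per condition depended on single libraries: without WT normoxia library 1 they were 14 and 20, where 33.8% and 41.9% of all tested genes were called. The hypoxia count was 7 without WT hypoxia library 2, 8 without TAZKo hypoxia library 1 and 6 without TAZKo hypoxia library 2, where 26.3%, 25.6% and 26% of all tested genes were called. The epithelial marker sum, nearly all Krt14, was 219 to 279 CPM in WT and 98.5 to 107 CPM in TAZKo normoxia, and 198 to 207 against 130 to 137 CPM in hypoxia, while Epcam had at most 17 counts and Cdh1 at most 8. The endothelial marker sum was 18 to 21 CPM in WT and 5.64 to 7.45 CPM in TAZKo normoxia, and 14.5 to 20.5 against 3.84 to 5.05 CPM in hypoxia. Tek (56 to 480 counts) and Kdr (21 to 97) made up most of it, while Pecam1 had at most 20 counts and Cdh5 at most 2. The part of these markers in the genotype differences was not tested.

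Ndufaf3 had the largest genotype difference of all members. It was at 10.3, 9.08 and 8.19 CPM in WT normoxia and at 16.2, 17.6 and 17.5 CPM in TAZKo normoxia. In hypoxia it was at 5.85, 5.07 and 4.66 CPM in WT and at 10.4, 10.1 and 10.2 CPM in TAZKo, so that the hypoxic TAZKo libraries reached the level of the WT ones in normoxia. The fold difference was 1.86 in normoxia (log2 0.90, SE 0.098, edgeR adjusted p = 1.31e-05) and 1.98 in hypoxia (log2 0.98, SE 0.11, edgeR adjusted p = 1.43e-05), with no overlap. Of all tested genes, 22% in normoxia and 24.2% in hypoxia were higher in TAZKo without overlap. None of the 50-base words of the Ndufaf3 transcript recur in other annotated genes. Its partner Ndufaf4 was not called in either condition (0.15 and 0.26).

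The flavin subunit Ndufv1 was lower in the libraries labelled TAZKo by 0.40 in normoxia and 0.47 in hypoxia (log2 -0.40 and -0.47, SE 0.088 and 0.089, edgeR adjusted p = 0.00358 and 0.00109). Ndufs8 was at 103, 79.4 and 80.7 CPM in WT and 65.9, 66.3 and 63.6 CPM in TAZKo normoxia, and at 74.4, 68.4 and 67.2 against 57.1, 55.2 and 54.3 CPM in hypoxia (log2 -0.42 and -0.33, edgeR adjusted p = 0.00221 and 0.00987). Without WT normoxia library 1 the normoxia difference was -0.30 for Ndufv1 and -0.30 for Ndufs8. Ndufb8 had log2 differences of -0.33 and -0.25 (edgeR adjusted p = 0.00949 and 0.0365). In normoxia its difference was -0.19 without WT normoxia library 1, and the call was lost with only the 6 libraries compared (-0.33, edgeR adjusted p = 0.0591). In hypoxia its call was lost when any single hypoxic library was left out, with adjusted p from 0.0606 to 0.086, and DESeq2 gave an adjusted p of 0.0548. That call was also lost with scaling by DESeq2 size factors, library size alone or upper quartile. A filter at a mean of 5 CPM ended it too, as did offsets for GC content and length, alone or with the replicate block. Ndufa12, an N module subunit, was higher, at 21.2, 22.6 and 21.9 CPM against 27.5, 28.1 and 29.2 CPM in normoxia and at 16.3, 19.9 and 14.8 CPM against 23.8, 22.3 and 23.3 CPM in hypoxia (log2 0.37 and 0.45, edgeR adjusted p = 0.00754 and 0.00235). The normoxia call for Ndufa12 was lost without TAZKo normoxia library 3 (0.31, edgeR adjusted p = 0.0571).

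These 4 subunits lie on the chromosomes whose genes as a whole differed most between the genotypes. Ndufv1, Ndufs8 and Ndufb8 are the 3 members on chromosome 19, where the median log2 difference of all 492 tested genes was -0.268 in normoxia and -0.282 in hypoxia. Ndufa12 is on chromosome 10, where the median of 676 genes was 0.314 and 0.286. The other member there, Ndufs7, had 0.08 and 0.29 and was not called. Medians beyond 0.1 from that of all genes were also found in both conditions on chromosome 18 (-0.218 and -0.281, with Ndufa2), chromosome 8 (-0.161 and -0.145, with Ndufa13 and Ndufb7) and chromosome 4 (0.128 and 0.125, with Ndufaf6, Ndufaf4, Ndufb6 and Ndufs5), and in normoxia on chromosome 3 (0.131, with Ndufb5 and Ndufc1). When each gene was tested relative to the median of its chromosome, with the counts an alternative added after seeing the data, 4 members were called in normoxia and 8 in hypoxia, where 25.5% and 28.1% of all tested genes were called. In that fit Ndufv1 was at -0.13 and -0.19, Ndufs8 at -0.16 and -0.05, Ndufb8 at -0.07 and 0.03 and Ndufa12 at 0.05 and 0.16, and none of these 4 passed the edgeR test (adjusted p from 0.129 to 0.858). Also lost there were the calls for Ndufs5 in normoxia (0.20, edgeR adjusted p = 0.194) and for Ndufaf6 and Ndufa6 in hypoxia (0.24 and 0.18, edgeR adjusted p = 0.125 and 0.0862). Ndufaf3, on chromosome 9 with medians of 0.017 and 0.001, was still higher, by 0.88 and 0.98.

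**Figure D4:**
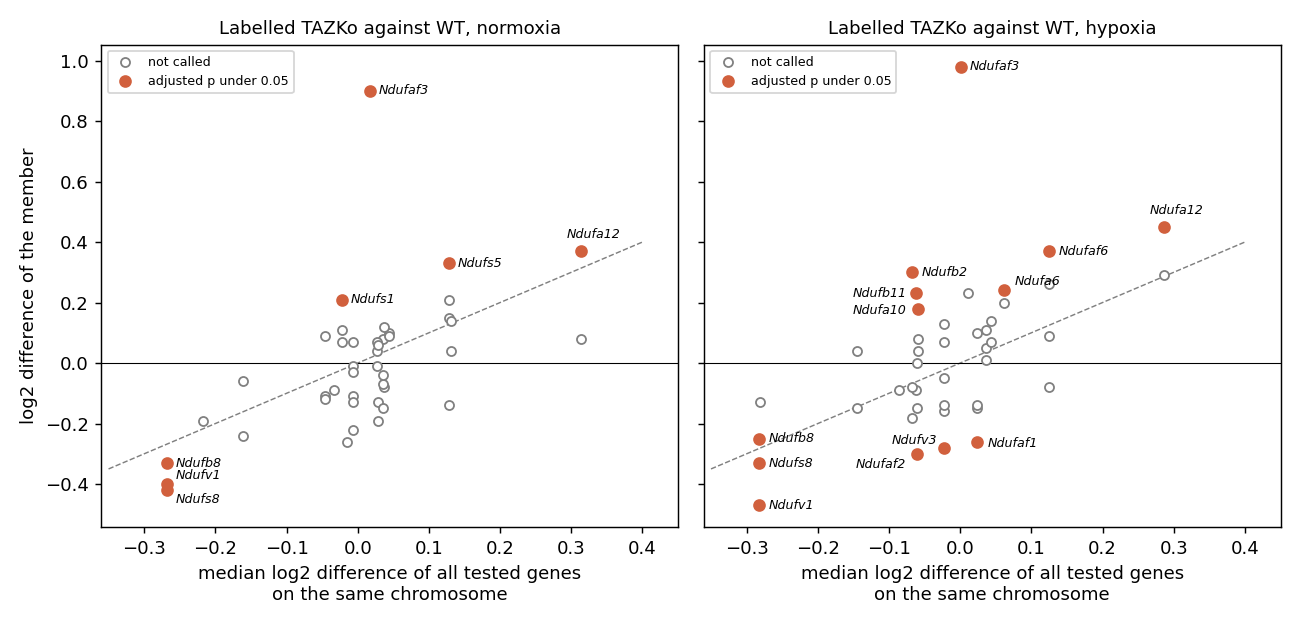
Log2 difference between libraries labelled TAZKo and WT of 43 of the 44 members (vertical axis) against the median log2 difference of all tested genes on its chromosome (horizontal axis), in normoxia (left) and hypoxia (right); filled points passed an adjusted p of 0.05, and on the dashed line a member differs exactly as its chromosome's median. Ndufb8, Ndufs8 and Ndufv1 lie at the left end, Ndufa12 at the right end, and Ndufaf3 lies far above the line at 0.90 and 0.98.

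The other genotype calls were each made in a single condition. In normoxia Ndufs1 was higher (0.21, SE 0.058, edgeR adjusted p = 0.0132), a call lost without TAZKo normoxia library 1 (0.15, adjusted p = 0.106) or 2 (0.18, adjusted p = 0.0794). Ndufs5, at 12.6, 11.0 and 11.3 CPM in WT and 13.5, 15.1 and 15.1 CPM in TAZKo, was higher by 0.33 (SE 0.11, edgeR adjusted p = 0.0316), and the call was lost without WT normoxia library 2 or 3, TAZKo normoxia library 2 or 3, WT hypoxia library 2 or any TAZKo hypoxia library, with adjusted p up to 0.146. In hypoxia Ndufaf6 was higher by 0.37 (SE 0.11, edgeR adjusted p = 0.0204), lost without WT hypoxia library 3 or TAZKo hypoxia library 1 or 2 (adjusted p up to 0.0985). Ndufaf2 was lower (-0.30, SE 0.082, edgeR adjusted p = 0.0131), a call lost without WT hypoxia library 2 or TAZKo hypoxia library 1 (adjusted p up to 0.0543), and carries the antisense overlap given above. Ndufb2, Ndufa6, Ndufb11 and Ndufa10 were higher in hypoxia by 0.18 to 0.30, Ndufaf1 and Ndufv3 were at -0.26 and -0.28, and each of these 6 calls was lost in left-out fits. The call for Ndufaf1 was lost without TAZKo hypoxia library 2. The call for Ndufv3 was lost without WT hypoxia library 1 or TAZKo hypoxia library 1 or 2. For Ndufb2 it was lost without WT hypoxia library 2 or 3 or TAZKo hypoxia library 2, and for Ndufa6 without WT hypoxia library 2 or 3 or TAZKo hypoxia library 3. For Ndufa10 all hypoxia libraries except TAZKo library 1, and for Ndufb11 every hypoxia library except WT library 1 and also each TAZKo normoxia library, ended the call. Whether any of these differences changed between normoxia and hypoxia is the interaction above, which no member passed.

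Per kilobase of longest transcript, the levels of the members in WT normoxia ran from 4.02 CPM for Ndufb4 to 246 CPM for Ndufb9, with the assembly factors between 5.54 (Ndufaf4) and 21.5 (Ndufaf8). The genes outside the members whose log2 CPM over the 12 libraries was most like the mean of the subunits were Uqcr10, a small subunit of complex III (Pearson r = 0.994), Atp5e, the epsilon subunit of ATP synthase (0.990), and Lrwd1, a component of the replication origin machinery (0.986). The mean of the subunits was itself highest in WT normoxia library 1, at 6.02 on the log2 CPM scale against 5.58 to 5.89 in the other libraries, and these correlations are a description over libraries that share the 4 groups and their depth.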

How the data were processed

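RNA was measured in 12 libraries of mouse embryonic fibroblasts (Illumina TruSeq RNA v2 kit, per the labels' protocols). The authors deposited whole-number read counts per Ensembl gene, with no normalization recorded. The build was mm10 per the submitters' processing notes. The aligner, the counting program, the annotation release and the use of strand are not given in the sources used here. Symbols and coordinates came from GENCODE M21 (GRCm38), which matched 48349 of 48709 identifiers. Of neighbouring identifiers, 99.73% stood in GRCm38 order.

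Genes were filtered with filterByExpr, scaled by TMM and fitted with edgeR's quasi-likelihood test over all 12 libraries, with 1 coefficient per group (edgeR 4.0.16, limma 3.58.1, R 4.3.3), and p-values were adjusted by Benjamini-Hochberg over 14408 genes at 0.05. The biological coefficient of variation was 8.62%. A fold or log2 difference comes from this fit. CPM values are TMM-scaled, and mean log2 CPM used a prior count of 2. Floors in counts cover counting error only. The interaction is the TAZKo change minus the WT change. The fitting steps were tested on simulated counts.

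The members, the gene lists and the tests were chosen with earlier results of these data known. The lists were the subunit modules, the Nduf and other assembly factors, the mitochondrially encoded subunits, nuclear genes of complexes II to V, iron-sulfur cluster assembly genes, regulators of respiratory genes and cell type markers. Genes given in full are Ndufs1, Ndufv1, Ndufb8 and, per comparison, the 3 called members with the largest positive and the 3 with the largest negative difference. Other members are named as examples of their module or role. Of the 44 members, 1 enters the counts, medians and sums and is not reported here by name or in the plots of single members.

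Replicate numbers come from the titles, and no label says what they stand for. Deviations from the group means correlated at 0.15 to 0.35 for same-numbered libraries in the normoxia genotype comparison and at 0.15 to 0.37 in the WT hypoxia comparison, all over 0.1. Libraries numbered 2 and 3 also correlated across groups, at 0.11 and 0.12 in the first comparison and at 0.18 and 0.15 in the second. These values therefore cannot show that the numbers pair, and the main fit used no block. Same-numbered libraries were at -0.02 to 0.12 in the hypoxia genotype comparison and at -0.02 to 0.09 in the TAZKo hypoxia comparison. Alternatives were other scalings and filters, DESeq2 1.42.0, a replicate block, the lane given in the names of the deposited tables as a covariate, only the 6 libraries compared, offsets for GC content and length, a change of at least 1.5-fold and leaving out each library.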

Additional observations from a re-analysis of the deposited data

How the results depend on the processing

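The hypoxia pattern kept its direction under every alternative tried, while the number of genotype calls did not hold. With offsets for GC content and gene length, alone or with the replicate block, 41 members were called for hypoxia in TAZKo (against 27), 16 for genotype in normoxia (against 8), and 20 or, with the block, 22 for genotype in hypoxia (against 13). Of all tested genes these offsets called 55.8%, 41.1% and 43.6% (58.5%, 44.2% and 47.1% with the block), against 43.8%, 30.4% and 32.8%. With these offsets the median hypoxia change was -0.46 in WT, alone and with the block, and -0.41 or, with the block, -0.40 in TAZKo, while that of all tested genes was -0.085 and -0.066 (-0.084 and -0.065 with the block). Scaling by library size alone gave medians of -0.43 and -0.38, and shifted the median of all tested genes to -0.097 and -0.103. Upper quartile scaling gave -0.39 and no filter on low counts -0.40 in WT. Requiring a change of at least 1.5-fold left 5 members in WT hypoxia, 4 in TAZKo hypoxia and 1 in each genotype comparison. Of all tested genes that cut called 23%, 17.7%, 11.2% and 11.5% in the same order, normoxia before hypoxia. Only the 6 libraries compared left 5 genotype calls in normoxia, where 24.2% of all tested genes were called. Testing relative to the chromosome median, added after seeing the data, left 4 and 8 genotype calls and reversed Ndufb8 in hypoxia to 0.03. No filter on low counts called 1 interaction, that of Ndufaf8, where 2.53% of all tested genes were called.

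Leaving out each library in turn gave 30 to 36 calls for hypoxia in WT (median -0.42 to -0.26), 24 to 36 in TAZKo, 7 to 14 for genotype in normoxia (median -0.10 to 0.02) and 6 to 20 in hypoxia (median -0.03 to 0.04). In fits with these lowest and highest counts, 52.3% and 50.4% of all tested genes were called for hypoxia in WT and 36.5% and 52.3% in TAZKo. For genotype the shares were 23.8% and 33.8% in normoxia and 26% and 41.9% in hypoxia. Interaction estimates near 0 changed sign without one library: the lowest and highest values were -0.06 and 0.18 for Ndufb8, -0.17 and 0.02 for Ndufv3 and -0.17 and 0.02 for Ndufv1. The replicate block gave 34 and 32 calls for hypoxia in WT and TAZKo and 11 and 17 for genotype in normoxia and hypoxia, none moved by over 1.5 times. Of all tested genes the block called 55.7%, 48.7%, 36.2% and 38.3% in that order. Lane as a covariate gave 31, 25, 8 and 15 in the same order, where 49.9%, 43.6%, 31.5% and 33.9% of all tested genes were called. Of 971 checks of single members under alternatives other than leaving out a library, 930 kept direction and call, 37 lost the call, 3 gained one and 1 reversed; of 1044 with a library left out, 974, 63, 0 and 7. The cause of these shifts was not tested. With 3 libraries a group and a biological coefficient of variation of 8.62%, small changes of single members, and those of genes at a few CPM such as Ndufb4, are poorly resolved.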
